A study of Arabidopsis thaliana with 18 samples.

Results

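The major antenna of photosystem II, called LHCII, is assembled as trimers of the chlorophyll a/b-binding proteins LHCB1, LHCB2 and LHCB3. In thale cress, Arabidopsis thaliana, the laboratory plant studied, these proteins are encoded by 9 nuclear genes: 5 for LHCB1, 3 for LHCB2 and 1 for LHCB3. The 9 genes were taken by locus identifier, not by a measured value, but earlier results of these data were known. All 9 were found among the 27628 genes of the deposited table. All 9 also had enough counts to be among the 19493 genes tested. They are described one by one, as family sums and as a total, because some copies within a family are nearly identical.

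Trimer proteins bind chlorophyll a, chlorophyll b and xanthophylls, and pass the energy of absorbed light to photosystem II. They are made in the cytosol, imported into the chloroplast and handed to the thylakoid membrane by the chloroplast signal recognition particle. LHCB1 and LHCB2 can be phosphorylated by the kinase STN7, which lets part of the antenna serve photosystem I, whereas LHCB3 lacks that site. In leaves the LHCB genes are textbook examples of light-induced and clock-controlled genes, and leaves kept in long darkness yellow and dismantle their chlorophyll b and their trimers.

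RNA from leaves was sequenced in 18 libraries, 3 for each of 6 groups: wild type (WT), ml2 and ml5, sampled before (day 0) or after 7 days of darkness (day 7). No group was kept in light for these 7 days. Darkness therefore cannot be told apart from 7 days of ageing or from a different hour of harvest. Below, darkness and dark response name the change from day 0 to day 7. The labels name ml2 and ml5 as knockdowns and give no further allele. They do not say how the lines were made, how old the plants were, at which hour leaves were taken, or whether replicates were separate plants, and the spread behind every p-value here may therefore be technical, between libraries alone. An extraction note mentions doxycycline, which no sample label assigns to a group. Table columns marked CK were taken as day 0 and those marked D as day 7, an inference from the labels. ML2 and ML5 encode Mei2-like RNA-binding proteins. ML2 stood at 61.2 ± 2.26 CPM (read counts relative to normalised library size, mean ± SD, n = 3) in WT before darkness. The ml2 libraries held 6.35 ± 1.02 CPM then, which is 10.4% of WT, and 11% at day 7. For ML5 the WT level before darkness was 208 ± 5.85 CPM and the ml5 level 1.21 ± 0.327 CPM, which is 0.578%, and 0.211% at day 7.

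Libraries held 14914600 to 20417382 counts. Between replicates, chi-square per degree of freedom, which is 1 for counting noise alone, ran from 1.75 to 5.68. The exception was ml2 day 0 replicate 1, with 12.7 and 8.61 against the other libraries of its group. The falls of ml2 in darkness, its comparison with WT at day 0 and its dark response are also given without that library, for sums and a few members. Leaf mesophyll markers (RBCS1A, CA1 and RBCS3B) were detected in all groups, with a summed level of 22672 to 23081 CPM in WT at day 0 and 124 to 139.7 at day 7. Summed root markers reached at most 0.180 CPM, and RHD6, CRA1 and OLEO1, markers of root hairs and seeds, were listed at 0 in every library.

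The 5 LHCB1 genes lie in 2 tight clusters and have a single exon each. Positions span the gene as annotated in TAIR10.1. LHCB1.2 (AT1G29910, chr1:10472280-10473502, minus strand), LHCB1.1 (AT1G29920, chr1:10474656-10475969, minus strand) and LHCB1.3 (AT1G29930, chr1:10477885-10479114, plus strand) are neighbours on chromosome 1. LHCB1.5 (AT2G34420, chr2:14522524-14523568, minus strand) and LHCB1.4 (AT2G34430, chr2:14524607-14525918, plus strand) are neighbours on chromosome 2. Of the LHCB2 genes, which have 2 exons, LHCB2.2 (AT2G05070, chr2:1799234-1800472, minus strand) and LHCB2.1 (AT2G05100, chr2:1822990-1824480, minus strand) are on chromosome 2 and LHCB2.3 (AT3G27690, chr3:10255906-10257489, plus strand) is on chromosome 3. LHCB3 (AT5G54270, chr5:22038165-22039568, plus strand) has 3 exons. Coding sequences were 798 to 804 bases long. They were 86.8% to 96.4% identical over the 10 pairs within LHCB1, 84.5% to 96.6% over the 3 pairs within LHCB2, and 65.1% to 73.6% over the 23 pairs between families.

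The last 90 coding bases before the stop codon show how few letters separate some copies. Sequences are from RefSeq, TAIR10.1, written 5′ to 3′ on the coding strand. Capitals mark bases that differ from LHCB1.3 within LHCB1 and from LHCB2.1 within LHCB2.
LHCB1.3, chr1:10478782-10478871, plus strand: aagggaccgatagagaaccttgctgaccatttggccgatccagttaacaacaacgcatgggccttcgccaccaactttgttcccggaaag
LHCB1.2, chr1:10472446-10472535, minus strand: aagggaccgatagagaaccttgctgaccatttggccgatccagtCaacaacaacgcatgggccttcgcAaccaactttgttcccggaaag
LHCB1.1, chr1:10475092-10475181, minus strand: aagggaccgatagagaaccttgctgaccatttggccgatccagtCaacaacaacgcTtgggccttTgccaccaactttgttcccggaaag
LHCB1.5, chr2:14522719-14522808, minus strand: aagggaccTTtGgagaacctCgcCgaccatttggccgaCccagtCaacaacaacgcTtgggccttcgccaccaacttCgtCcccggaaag
LHCB1.4, chr2:14525526-14525615, plus strand: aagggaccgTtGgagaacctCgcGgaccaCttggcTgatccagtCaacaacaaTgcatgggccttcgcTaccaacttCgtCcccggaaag
LHCB2.1, chr2:1823452-1823541, minus strand: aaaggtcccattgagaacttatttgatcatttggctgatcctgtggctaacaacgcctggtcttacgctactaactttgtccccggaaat
LHCB2.2, chr2:1799439-1799528, minus strand: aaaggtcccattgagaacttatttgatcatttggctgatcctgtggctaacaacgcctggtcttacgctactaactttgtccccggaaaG
LHCB2.3, chr3:10256829-10256918, plus strand: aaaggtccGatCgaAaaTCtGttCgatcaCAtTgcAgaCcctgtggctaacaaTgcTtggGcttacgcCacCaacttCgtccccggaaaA
In this window LHCB1.2 and LHCB1.1 differed from LHCB1.3 at 2 and 3 bases, and LHCB1.5 and LHCB1.4 at 10 and 11. LHCB2.2 differed from LHCB2.1 at 1 base and LHCB2.3 at 19.

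Most of each transcript could still be told apart. The share of 50-base windows found in no other annotated transcript ran from 71.8% in LHCB2.2 to 89.4% in LHCB1.2. How long the reads were, and how those with several matches were counted, is not given in the sources used here. Among the deposited counts, 8 of the 9 genes had fractional counts in at least 1 library, LHCB3 being the exception, so reads may have been divided among copies. Levels of single LHCB1 and LHCB2 genes are uncertain to that degree, whereas a family sum holds reads divided within the family. LHCB1.3, LHCB1.5, LHCB2.3 and LHCB3 also share transcript windows with an annotated neighbour, and whether counting used strand is not stated.

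The levels before darkness come first. At day 0 the 9 genes together took 9.70% ± 0.136 (SD, n = 3) of all counts in WT. Among copies, levels are compared per kilobase of transcript. LHCB1.3 led with 31284 ± 815 CPM per kb, followed by LHCB1.5 with 24788 ± 361 and LHCB3 with 8851 ± 203. LHCB1.2 (6765 ± 184 CPM per kb) and LHCB1.1 (6427 ± 184) came next, and their replicates overlapped. LHCB1.4 (5840.4 ± 159) was lower than both. LHCB2.1 (4414 ± 53.1) and LHCB2.2 (4342 ± 51.2) overlapped each other, and LHCB2.3 (1303 ± 12.2) was the lowest. All other neighbours in this order were separated by non-overlapping replicates. The same 3 genes led in ml2 and in ml5, while LHCB1.1, LHCB1.2 and LHCB1.4 overlapped there and LHCB2.2 stood above LHCB2.1.

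**Figure D1:**
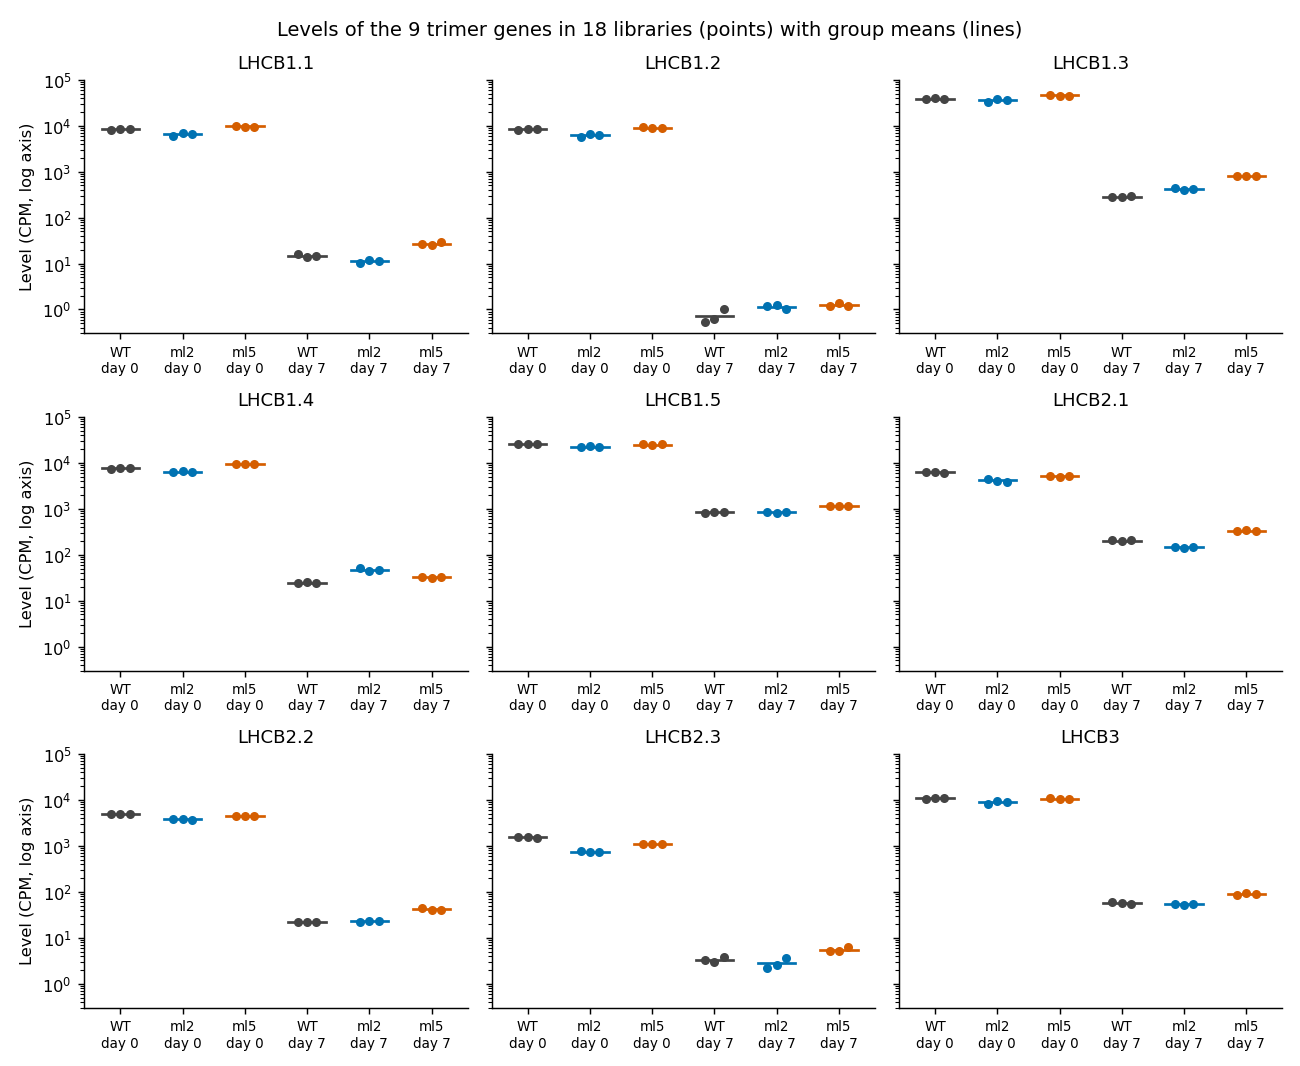
Levels of the 9 trimer genes (CPM, log axis) in each of 18 libraries (points) with group means (lines), by genotype and day. Each gene drops between the days in each genotype, from 30.6-fold for LHCB2.1 to 11552-fold for LHCB1.2 in WT.

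The first comparison asked how the trimer genes stood in WT after 7 days of darkness. All 9 genes fell, against 39.9% of all tested genes called lower with 42% called higher and 81.9% in either direction. Their median log2 fold change was -7.83, beside 0.044 over all tested genes. The total went from 109959, 114743 and 112756 CPM in the 3 libraries of day 0 to 1432, 1452 and 1475 at day 7. It fell 77.4-fold, with a log2 fold change of -6.27 ± 0.029 (SE of the edgeR fit, adjusted p = 3.36e-41), and 1.29% of the day 0 level was left. In these bulk leaf samples fewer cells of a type and less RNA per cell cannot be told apart. The summed mesophyll markers given above fell too. Epidermal markers summed to 102 to 107 CPM at day 0 and 24.3 to 27.8 at day 7. Guard cell markers summed to 55.5 to 62.5 CPM at day 0 and 73.5 to 76.7 at day 7, but differed among themselves. Mean KAT1 went from 36.5 to 58.7 CPM, FAMA from 12.6 to 12.5 and MYB60 from 10.2 to 3.78. Phloem markers summed to 320.2 to 346 CPM at day 0 and 127 to 134 at day 7. Of these, mean SUC2 went from 295 to 53.9 CPM, while APL rose from 36.5 to 76.5 CPM. Xylem markers summed to 5.68 to 6.49 CPM at day 0 and 0.0935 to 0.316 at day 7. Flower markers summed to 3.8 to 4.28 CPM and 1.68 to 2.62. In means, AG went from 3.87 to 1.27 CPM, AP3 from 0.12 to 0.0635 and PI, the other way, from 0.0983 to 0.855. The part of cell composition in the result was not tested.

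The LHCB1 genes, which encode most of the antenna protein, fell by very different factors. LHCB1.2 went from 8019, 8445 and 8358 CPM to 0.541, 0.607 and 1.01 CPM, a fall of 11552-fold (-13.50 ± 0.18, adjusted p = 1.38e-39). At day 7 it rested on 12 to 33 deposited counts per library over all 3 genotypes. That was the deepest fall of the 9 genes, in a copy that ranked 4 of 9 per kb at day 0. LHCB1.1, its neighbour, went from 8169, 8618 and 8546 CPM to 16.4, 13.7 and 14.7 CPM (-9.14 ± 0.060). LHCB1.4 went from 7437, 7850.3 and 7700.4 CPM to 24, 25.9 and 24.5 CPM (-8.27 ± 0.048). These 3 copies started at similar levels, between 7437 and 8618 CPM, and ended apart, each without overlap with the others. The copies that were strongest at day 0 kept more. LHCB1.3 went from 37422, 39416 and 38600.0 CPM to 285, 287 and 288 CPM (-7.07 ± 0.038). LHCB1.5 went from 25539, 26293 and 25879 CPM to 816, 844 and 861 CPM (-4.95 ± 0.030), a fall of 30.8-fold. As a family sum, LHCB1 fell 76.1-fold (-6.25 ± 0.031, adjusted p = 2.81e-40).

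LHCB2, the other STN7 substrate, showed the same unevenness. LHCB2.1 went from 6178, 6291 and 6150.5 CPM to 206, 198 and 206 CPM (-4.93 ± 0.039). LHCB2.2 went from 4909.8, 5026 and 4953 CPM to 21.7, 22 and 21.8 CPM (-7.83 ± 0.041). The 2 genes share 96.6% of their coding bases and had overlapping levels per kb at day 0, yet LHCB2.2 fell 227-fold and LHCB2.1 30.6-fold. LHCB2.3, the weakest copy, went from 1535, 1530.0 and 1508 CPM to 3.25, 2.99 and 3.77 CPM (-8.84 ± 0.099). The LHCB2 sum fell 55.6-fold (-5.8 ± 0.033). LHCB3, the single gene for the third subunit, went from 10731, 11232 and 11017 CPM to 59.2, 58.3 and 55 CPM, or 191-fold lower (-7.58 ± 0.043, adjusted p = 1.38e-39).

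The order of the genes changed with these falls. At day 7 in WT, LHCB1.5 led with 804 ± 21.7 CPM per kb, ahead of LHCB1.3 with 233 ± 1.22 and LHCB2.1 with 144 ± 3.26. LHCB3 followed with 46.3 ± 1.8 CPM per kb. LHCB2.2 (19.1 ± 0.144) and LHCB1.4 (18.9 ± 0.748) overlapped, and LHCB1.1 stood at 11.4 ± 1.03. LHCB2.3 (2.85 ± 0.341) and LHCB1.2 (0.587 ± 0.206) were last. LHCB1.5, LHCB1.3, LHCB2.1 and LHCB3 held the first 4 places in ml2 and ml5 as well.

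All 9 genes were lower at day 7 in both lines too. Beside them, 40.2% of all tested genes were called lower and 39.6% higher in ml2 (79.8% called). In ml5 these shares were 40.1% and 39.7% (79.8% called). The median log2 fold change of the 9 genes was -7.36 in ml2 and -6.89 in ml5. The total fell 61.8-fold in ml2 (-5.95 ± 0.029) and 48.6-fold in ml5 (-5.6 ± 0.029). Of the total at day 0, 1.62% was left in ml2 and 2.06% in ml5. LHCB1.2 fell deepest in both lines, with a log2 fold change of -12.39 ± 0.15 in ml2 and -12.79 ± 0.13 in ml5. Without ml2 day 0 replicate 1 the ml2 values were -5.99 for the total, -12.46 for LHCB1.2 and -4.75 for LHCB1.5. The smallest falls were those of LHCB1.5 in ml2 (-4.74 ± 0.030) and of LHCB2.1 in ml5 (-3.93 ± 0.039). Mesophyll markers in ml2 summed to 14012 to 15078 CPM at day 0 and 131 to 136 at day 7, and in ml5 to 20027 to 20914 and 295 to 300.2 CPM.

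**Figure D2:**
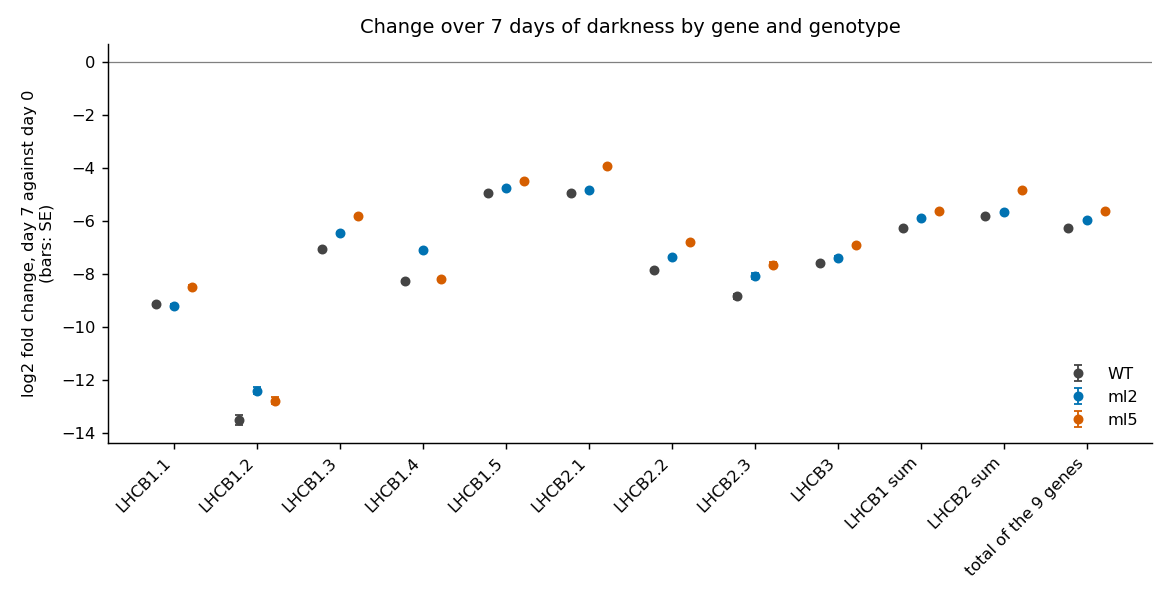
Log2 fold change from day 0 to day 7 of darkness (points, with SE as bars) for each gene, the LHCB1 and LHCB2 sums and the total, in WT, ml2 and ml5. The genes spread from -3.93 for LHCB2.1 in ml5 to -13.50 for LHCB1.2 in WT, and the ml5 point lies above the WT point for every gene, although the difference for LHCB1.4 did not pass the test.

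Because the copies fell unequally, the make-up of each family changed, a measure that does not depend on scaling between libraries. LHCB1.5 made up 29.2% ± 0.268 of LHCB1 counts in WT at day 0 and 72% ± 0.477 at day 7 (mean ± SD, n = 3). Its share went from 28.9% ± 1.24 to 63.7% ± 0.507 in ml2 and from 25.3% ± 0.319 to 56.4% ± 0.282 in ml5. In ml2 at day 0, replicate 1 had an LHCB1.5 share of 30.3% and the others 28.1% and 28.2%. LHCB1.3, the leading copy at day 0, went from 43.3% ± 0.138 to 24.6% ± 0.374 in WT. In ml5 the LHCB1.3 share went from 46.3% ± 0.249 to 40.6% ± 0.320, and ml2 lay between, from 46.5% ± 1.05 to 31.8% ± 0.332. LHCB1.1, LHCB1.2 and LHCB1.4 each held between 7.92% and 9.74% of LHCB1 in the group means of day 0. At day 7 LHCB1.1 held 1.28% ± 0.137 in WT, LHCB1.2 held 0.0613% ± 0.0203 and LHCB1.4 held 2.12% ± 0.0774. LHCB1.4 kept 3.54% ± 0.262 in ml2 and 1.62% ± 0.0411 in ml5.

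In LHCB2 the share of LHCB2.1 went from 48.9% ± 0.110 to 89% ± 0.207 in WT, from 47.6% ± 1.05 to 85% ± 0.748 in ml2 and from 47.6% ± 0.761 to 87.7% ± 0.501 in ml5. That of LHCB2.2 went from 39.1% ± 0.190 to 9.57% ± 0.270 in WT, and that of LHCB2.3 from 12% ± 0.132 to 1.46% ± 0.152. Of the total, LHCB3 held 9.78% ± 0.0161 at day 0 and 3.96% ± 0.210 at day 7 in WT, with 3.47% ± 0.0683 in ml2 and 3.60% ± 0.131 in ml5 at day 7. The LHCB2 part of the total went from 11.3% ± 0.166 to 15.7% ± 0.386 in WT, from 9.13% ± 0.729 to 11.2% ± 0.109 in ml2 and from 8.96% ± 0.190 to 15.4% ± 0.134 in ml5. For LHCB1 the change had no common direction: 78.9% ± 0.153 to 80.3% ± 0.501 in WT, 81.6% ± 0.541 to 85.4% ± 0.123 in ml2 and 82.3% ± 0.124 to 80.9% ± 0.262 in ml5. The 2 days did not overlap for any of the 11 shares in any genotype. With 3 libraries against 3 the exact two-sided permutation test cannot go below p = 0.1, which is the value each of these comparisons had.

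**Figure D3:**
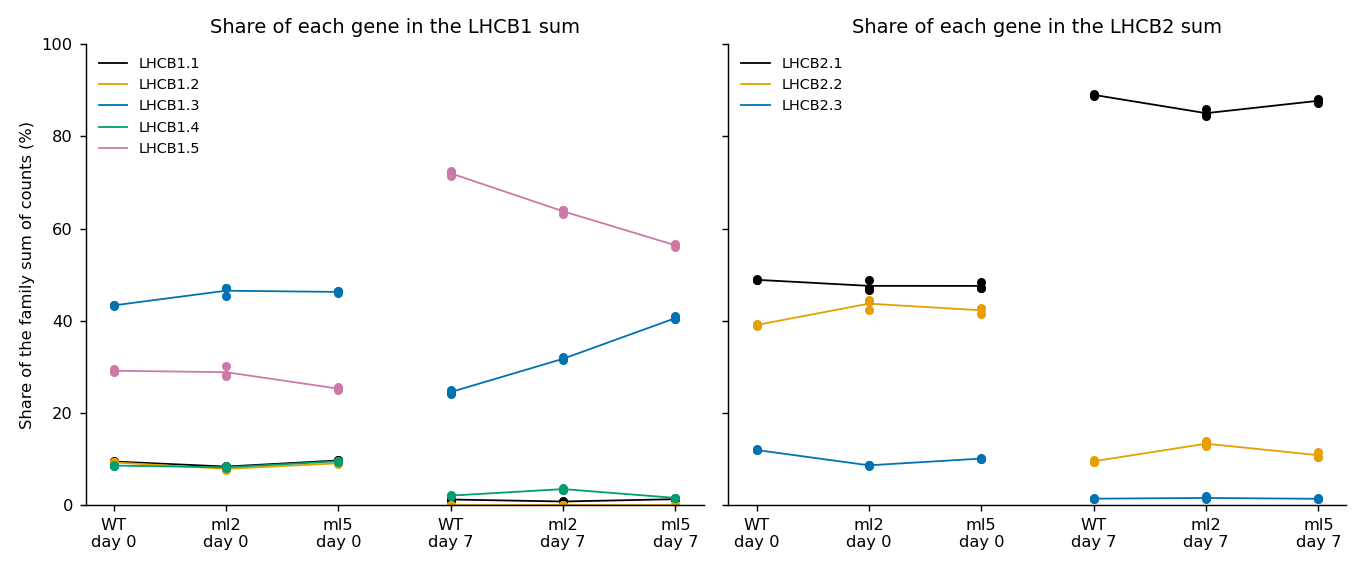
Share of each gene in the sum of LHCB1 counts (left) and of LHCB2 counts (right), in percent, in every library (points) with lines through the means of WT, ml2 and ml5 within a day. LHCB1.3 leads LHCB1 at day 0 and LHCB1.5 at day 7, where its share is 72% in WT, 63.7% in ml2 and 56.4% in ml5.

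At day 0 the lines were set against WT. In ml2, 8 of the 9 genes were lower, against 22.6% of all tested genes called lower and 21.9% higher (44.5% called), with a median log2 fold change of -0.37 beside -0.0065 over all genes. The total was 90402, 100171 and 95540.2 CPM in the ml2 libraries, below all 3 of WT, a log2 fold change of -0.24 ± 0.029 (adjusted p = 5.07e-08). LHCB2.3 differed most, with 792, 746 and 726 CPM in ml2, 2.02-fold lower (-1.01 ± 0.051). LHCB2.1 stood at 4394, 4102 and 3904 CPM (-0.59 ± 0.038), and LHCB2.2 at 3825, 3839 and 3719 CPM (-0.39 ± 0.034). The LHCB2 sum differed by -0.55 ± 0.032 and the LHCB1 sum by -0.19 ± 0.031, and the families were not tested against each other. In LHCB1, LHCB1.2 stood at 5566, 6715 and 6232 CPM (-0.42 ± 0.049), LHCB1.1 at 6049, 6936 and 6676 CPM (-0.37 ± 0.047) and LHCB1.4 at 6222, 6615 and 6429 CPM (-0.25 ± 0.041). LHCB1.5 stood at 22177, 23016 and 22104 CPM (-0.21 ± 0.029) and LHCB3 at 8195, 9452 and 8927 CPM (-0.31 ± 0.040). All of these lay below the WT libraries without overlap. LHCB1.3 overlapped WT, at 33166, 38730.1 and 36807 CPM, and did not pass (-0.087 ± 0.038, adjusted p = 0.0609).

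Replicate 1 of this group, the library that stands apart, had the lowest LHCB1.1, LHCB1.2, LHCB1.3, LHCB1.4 and LHCB3 of its group and the highest LHCB2.1 and LHCB2.3. Without it the same 8 genes were called lower, the total differed by -0.22, LHCB2.3 by -1.07 and LHCB1.3 by -0.049. With library sizes alone in place of TMM scaling, LHCB1.3 in ml2 was higher than in WT by 0.028, while the median of all genes moved by 0.11. It passed as lower under RLE size factors and DESeq2 (-0.13 each), with a filter of 1 count (-0.086), and when WT day 0 replicate 1 (-0.11) or ml2 day 0 replicate 2 (-0.14) was removed. Without ml2 day 0 replicate 1 the LHCB1 sum differed by -0.17 and the LHCB2 sum by -0.60. Of the marker lists, 4 were lower in ml2 without overlap: mesophyll, at 14012 to 15078 CPM against 22672 to 23081 in WT, epidermis, at 74.6 to 87.2 against 102 to 107, guard cell, at 47.5 to 51.2 against 55.5 to 62.5, and flower, at 1.99 to 2.24 against 3.8 to 4.28. Of the flower markers, mean AG stood at 2.01 against 3.87 CPM in WT, AP3 at 0 against 0.12 and PI at 0.091 against 0.0983. Xylem markers were higher, at 7.05 to 8.18 against 5.68 to 6.49 CPM, and phloem markers overlapped. Their part in the result was not tested.

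In ml5 at day 0 the families went different ways. Of the 9 genes, 4 were higher and 3 lower, beside 19.5% and 18.8% of all tested genes (38.3% called). The higher genes were LHCB1.4, at 9518, 9337 and 9468 CPM (0.30 ± 0.041), LHCB1.3, at 46788, 45064 and 45169 CPM (0.25 ± 0.038), LHCB1.1, at 9890.2, 9384 and 9578 CPM (0.19 ± 0.047), and LHCB1.2. LHCB1.2 stood at 9387, 8836 and 8807 CPM (0.12 ± 0.049, adjusted p = 0.0462), a call that ended under RLE size factors, DESeq2, the replicate block and each removal of 1 of the 6 libraries compared, with values from 0.088 to 0.14. The 3 lower genes were those of LHCB2. LHCB2.3 stood at 1083, 1083 and 1106 CPM (-0.48 ± 0.051), LHCB2.1 at 5038, 5027 and 5272 CPM (-0.28 ± 0.038) and LHCB2.2 at 4579, 4544 and 4503 CPM (-0.13 ± 0.034). None of these 7 genes overlapped WT. LHCB1.5, at 25283, 24429 and 25209 CPM (-0.053 ± 0.029), and LHCB3, at 10844, 10339 and 10442 CPM (-0.061 ± 0.040), did not pass, though both were called lower in a fit restricted to the libraries compared (-0.053 and -0.061), and LHCB1.5 also under RLE size factors and DESeq2 (-0.088 each). The LHCB1 sum was higher (0.15 ± 0.031, adjusted p = 0.000182) and the LHCB2 sum lower (-0.24 ± 0.032, adjusted p = 3.24e-07). The total was 122429, 118064 and 119586 CPM, higher by 0.094 ± 0.029 (adjusted p = 0.0106), a call that ended under RLE size factors and DESeq2 (0.059 each) and without WT day 0 replicate 1 (0.078) or ml5 day 0 replicate 1 (0.079). Of the mesophyll markers, whose sum was 20027 to 20914 CPM in ml5, CA1 (-0.62 ± 0.052) and RBCS3B (-0.53 ± 0.054) were lower than in WT and RBCS1A did not pass (0.022 ± 0.036). Epidermal markers, at 86 to 89.7 CPM, and flower markers, at 1.46 to 2.16 CPM, were lower than in WT without overlap. Phloem markers, at 358 to 369.9 CPM, and xylem markers, at 7.21 to 9.75 CPM, were higher, and guard cell markers overlapped. Their part in the result was not tested.

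**Figure D4:**
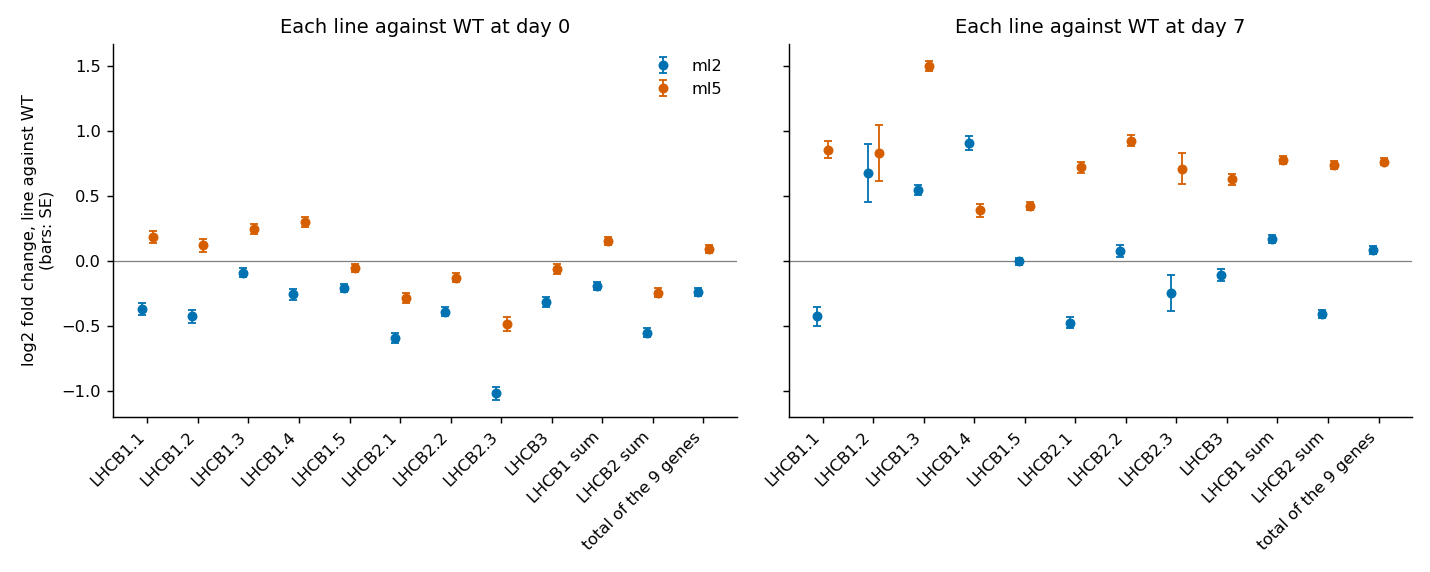
Log2 fold change of ml2 and of ml5 against WT at day 0 (left) and day 7 (right), with SE as bars, for the 9 genes, the LHCB1 and LHCB2 sums and the total. At day 0 the points lie between -1.01 and 0.30, and at day 7 all 9 ml5 points lie between 0.39 and 1.5 while those of ml2 fall on both sides of 0.

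At day 7 the ml5 line stood above WT in all 9 genes, against 19.3% of all tested genes called higher (43.3% called). Their median log2 fold change was 0.72, beside -0.030 over all genes, and no gene overlapped WT. The total was 2474, 2467 and 2472 CPM in ml5, 1.7-fold above WT (0.77 ± 0.029, adjusted p = 3.86e-19). LHCB1.3 stood out among the genes, with 823, 806 and 808 CPM, 2.83-fold above WT (1.5 ± 0.038, adjusted p = 4.1e-23). LHCB2.2 stood at 43.8, 40.7 and 40.1 CPM (0.93 ± 0.043), and LHCB1.1 at 26.5, 25.8 and 28.9 CPM (0.86 ± 0.065). LHCB2.1 stood at 331, 339 and 335 CPM (0.72 ± 0.039) and LHCB3 at 86, 92.2 and 89.1 CPM (0.63 ± 0.044). In relative terms LHCB1.3 was thus furthest from WT, and the other 4 lay closer together. LHCB1.5, the most abundant copy at this day, stood at 1126, 1126 and 1132 CPM (0.42 ± 0.030) and LHCB1.4 at 32.6, 31.5 and 33.4 CPM (0.39 ± 0.052). LHCB2.3, at 5.06, 5.15 and 6.2 CPM (0.71 ± 0.12), and LHCB1.2, at 1.2, 1.39 and 1.21 CPM (0.83 ± 0.22), were the weakest copies in both genotypes. The LHCB1.2 call ended without WT day 7 replicate 1 (0.66). Mesophyll markers summed to 295 to 300.2 CPM in ml5 against 124 to 139.7 in WT, with RBCS1A (1.39 ± 0.038) and RBCS3B (0.47 ± 0.065) higher and CA1 lower (-1.03 ± 0.17). Summed guard cell markers, at 50.3 to 56.2 CPM, and phloem markers, at 111 to 121 CPM, were lower than in WT without overlap. In means against WT, KAT1 stood at 37.1 against 58.7 CPM, FAMA at 12.2 against 12.5 and MYB60 at 4.05 against 3.78. APL stood at 63.2 against 76.5 CPM and SUC2 at 52 against 53.9. Summed flower markers, at 3.28 to 3.81 CPM, were higher. Summed epidermal markers, at 27.8 to 28.9 CPM, lay just above WT, and xylem sums overlapped. PI stood at 2.45 against 0.855 CPM in WT, but AG at 0.982 against 1.27 and AP3 at 0.0283 against 0.0635. PDF2 stood at 19 against 16.9 CPM, but ATML1 at 9.11 against 9.66. The part of these markers in the result was not tested.

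In ml2 at day 7 the genes were mixed: 3 were higher and 2 lower, beside 13.4% and 12.4% of all tested genes (25.8% called). LHCB1.4 stood at 51.3, 43.2 and 45.3 CPM, 1.88-fold above WT (0.91 ± 0.051), and LHCB1.3 at 429.7, 400.1 and 426 CPM (0.55 ± 0.038). LHCB1.2 stood at 1.2, 1.22 and 1.01 CPM (0.68 ± 0.23, adjusted p = 0.0457), a call that ended with library sizes alone, with a filter of 1 count, under DESeq2, in a fit restricted to the libraries compared and without any 1 of replicates 1 and 2 of WT and of ml2 at day 7 (0.51 to 0.69 over these). The 2 lower genes were LHCB2.1, at 148, 140.5 and 151 CPM (-0.47 ± 0.040), and LHCB1.1, at 10.2, 12 and 11.2 CPM (-0.42 ± 0.073). None of these 5 overlapped WT. LHCB1.5, at 844, 814 and 859 CPM, overlapped WT (-0.0017 ± 0.030, adjusted p = 0.980), as did LHCB2.3, at 2.25, 2.58 and 3.55 CPM (-0.24 ± 0.14). LHCB2.2, at 22.3, 23.4 and 23.5 CPM (0.078 ± 0.046), and LHCB3, at 53.7, 52.8 and 53.8 CPM (-0.11 ± 0.046), did not overlap WT and did not pass. LHCB3 passed without WT day 7 replicate 3 (-0.14) and with library sizes alone (-0.15), and LHCB2.3 without ml2 day 7 replicate 3 (-0.46). The LHCB1 sum was higher (0.17 ± 0.031) and the LHCB2 sum lower (-0.41 ± 0.033). The total, at 1563, 1489.7 and 1574 CPM, was higher by 0.086 ± 0.029 (adjusted p = 0.0280), a call that ended with library sizes alone (0.046), under DESeq2 (0.090) and when 1 library of day 7 was removed (0.075 for WT replicate 1, 0.084 for WT replicate 2, 0.076 for ml2 replicate 1 and 0.072 for ml2 replicate 3). Summed guard cell markers, at 63.1 to 71.7 CPM against 73.5 to 76.7 in WT, and phloem markers, at 108 to 125 against 127 to 134 CPM, were lower in ml2 without overlap. In means, APL stood at 63.5 against 76.5 CPM in WT, and SUC2, which overlapped, at 51.1 against 53.9. KAT1 stood at 51.2 against 58.7 CPM, FAMA at 11.1 against 12.5 and MYB60 at 3.68 against 3.78, each with overlap. Mesophyll, epidermal, xylem and flower sums overlapped WT, although CA1 alone was higher (0.74 ± 0.13). Their part in the result was not tested.

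Whether the dark response itself differed was tested as an interaction, the change in a line minus the change in WT. The comparisons of ml2 and ml5 share the WT libraries. In ml5, 8 of the 9 genes fell less than in WT, against 17.4% of all tested genes with a higher dark response (35.4% called). The total fell less by 0.67 ± 0.041 (adjusted p = 3.02e-14), which is 1.59-fold. LHCB1.3 had the largest difference (1.26 ± 0.054), and all 3 LHCB2 genes had about 1 or more: LHCB2.3 1.2 ± 0.13, LHCB2.2 1.06 ± 0.055 and LHCB2.1 1.0 ± 0.055. The LHCB1.2 difference (0.71 ± 0.22) no longer passed without WT day 7 replicate 1 (0.54) or 2 (0.61) or ml5 day 7 replicate 2 (0.64). LHCB1.4 did not pass (0.090 ± 0.066, adjusted p = 0.312). In ml2, 7 genes fell less than in WT, against 13.4% of all tested genes called higher and 15.6% lower (29% called), and the total by 0.32 ± 0.041 (adjusted p = 2.42e-07). Here LHCB1.4 had the largest difference (1.16 ± 0.065), followed by LHCB1.2 (1.1 ± 0.23) and LHCB2.3 (0.77 ± 0.15). LHCB1.1 (-0.056 ± 0.087) and LHCB2.1 (0.12 ± 0.056) did not pass. LHCB1.1 turned to 0.017 without WT day 7 replicate 1, and LHCB2.1 passed under RLE size factors and DESeq2 (0.16 each). Without ml2 day 0 replicate 1 the total differed by 0.32 and LHCB2.1 passed (0.19), which made 8 genes. The LHCB2 sum fell less by 0.14 ± 0.046, but turned to -0.013 with library sizes alone and no longer passed in a fit restricted to the libraries compared (0.14) or when WT day 7 replicate 2 (0.12), ml2 day 0 replicate 3 (0.11) or ml2 day 7 replicate 3 (0.12) was removed. With library sizes alone LHCB1.5 (0.051) and LHCB3 (0.050) no longer passed in ml2, and LHCB2.1 turned to -0.040. Under that scaling the all-gene median shifted by -0.15 in this comparison. The higher total of ml5 at day 7 goes with a smaller fall, whereas ml2 began lower at day 0 and fell less.

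The 2 lines also differed from each other. At day 0 all 9 genes were higher in ml5 than in ml2, against 14.2% of all tested genes called higher and 14.5% lower (28.7% called), from 0.15 ± 0.029 for LHCB1.5, which did not pass with library sizes alone (0.056), to 0.56 ± 0.041 for LHCB1.4, and the total by 0.33 ± 0.029. At day 7, 7 were higher, 1 lower and 1 did not pass, beside 19% and 22.4% (41.4% called). LHCB1.1 (1.28 ± 0.068) and LHCB2.1 (1.19 ± 0.040) were highest relative to ml2. LHCB1.4 was the lower one, with every ml5 library, 32.6, 31.5 and 33.4 CPM, under every ml2 library (-0.52 ± 0.049, adjusted p = 3.83e-10). LHCB1.2 overlapped between the lines (0.15 ± 0.19, adjusted p = 0.625). In the dark response, ml5 minus ml2, 7 genes were higher and LHCB1.4 lower (-1.08 ± 0.064), beside 13.6% and 12.2% of all tested genes (25.8% called). The LHCB2.3 difference (0.43 ± 0.13) no longer passed without ml2 day 7 replicate 1 (0.29) or 2 (0.37) or ml5 day 7 replicate 3 (0.33). The total fell less in ml5 than in ml2 by 0.35 ± 0.041 (adjusted p = 8.94e-08). Without ml2 day 0 replicate 1 the day 0 difference of the total was 0.28 and that of the dark response 0.42.

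Sequence upstream of the genes was read because copies with similar coding sequence fell by different factors. The 200 bases before the annotated transcript start are shown for LHCB1.2 and LHCB1.5, the deepest and the shallowest fall in LHCB1, and for the pair LHCB2.2 and LHCB2.1. Letters are from RefSeq, TAIR10.1, 5′ to 3′ on the strand of the gene. Capitals mark matches on either strand to CCAATC, to the motif AATATC or to the box TATAAA.
LHCB1.2, chr1:10473503-10473702, minus strand: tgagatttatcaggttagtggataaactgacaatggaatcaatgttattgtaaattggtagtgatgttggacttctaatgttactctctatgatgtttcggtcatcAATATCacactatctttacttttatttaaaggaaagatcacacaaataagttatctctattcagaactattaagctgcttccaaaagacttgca
LHCB1.5, chr2:14523569-14523768, minus strand: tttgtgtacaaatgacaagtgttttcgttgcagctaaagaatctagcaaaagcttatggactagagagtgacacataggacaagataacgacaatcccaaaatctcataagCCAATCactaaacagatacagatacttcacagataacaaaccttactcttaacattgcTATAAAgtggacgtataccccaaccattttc
LHCB2.2, chr2:1800473-1800672, minus strand: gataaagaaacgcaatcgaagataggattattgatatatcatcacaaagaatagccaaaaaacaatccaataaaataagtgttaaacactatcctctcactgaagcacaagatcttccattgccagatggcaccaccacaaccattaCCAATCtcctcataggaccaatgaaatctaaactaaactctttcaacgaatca
LHCB2.1, chr2:1824481-1824680, minus strand: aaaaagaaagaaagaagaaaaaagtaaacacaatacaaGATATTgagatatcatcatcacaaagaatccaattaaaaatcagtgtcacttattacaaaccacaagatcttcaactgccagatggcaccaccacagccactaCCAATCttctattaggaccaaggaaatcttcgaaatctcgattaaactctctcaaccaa
These windows of LHCB2.1 and LHCB2.2 were 68.1% identical, and those of LHCB1.2 and LHCB1.5 49.5%, in global alignments with gaps counted. Motifs were searched on both strands in the same window of 27443 genes. CCAAT, the CCAAT box, was in 9 of the 9 windows and in 39.4% of all. The longer CCAATC, which contains it, was in 5 (LHCB1.3, LHCB1.5, LHCB2.1, LHCB2.2 and LHCB2.3) and in 8.41% of all. AATATC, part of the evening element, was in 3 (LHCB1.1, LHCB1.2 and LHCB2.1) and in 19.8% of all. TATAAA was in 3 (LHCB1.5, LHCB2.3 and LHCB3) and in 40.9% of all. CACGTG, the G-box, was in LHCB2.3 alone of the 9 and in 5.72% of all, and GATAAG, the I-box, was in 0 of the 9 and in 10.09% of all. A match is a description of letters, not a site in use.

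Genes that work with the trimer were followed by list, and the counts stand beside 39.9% of all tested genes lower and 42% higher in WT darkness (81.9% called). Of the minor antenna, which links trimers to the photosystem core (LHCB4 to LHCB7), 6 of 6 fell in WT (median -4.91). LHCB5 went from 11256, 11501 and 11397 CPM to 68.5, 72.7 and 75.1 CPM (-7.3 ± 0.041), and LHCB6 fell as well (-5.93 ± 0.041). Of the photosystem I antenna (LHCA1 to LHCA6), 6 of 6 fell (median -5.28), among them LHCA1 (-6.72 ± 0.043) and LHCA2 (-5.37 ± 0.033). These medians lie above the -7.83 of the 9 trimer genes, a difference that was not tested. The import and insertion genes (cpSRP43, cpSRP54, cpFTSY, ALB3 and LTD) fell in 5 of 5 cases with a median of -1.78, LTD by most (-3.7 ± 0.091) and cpSRP43, which carries LHCB proteins through the stroma, by less (-2.3 ± 0.043). The kinases STN7 (-1.34 ± 0.050) and STN8 (-2.51 ± 0.069) and the phosphatase TAP38 (-1.98 ± 0.053) fell too, 3 of 3. All of these lists fell in ml2 and ml5 in the same counts.

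Genes for chlorophyll b and trimer dismantling moved the other way in 5 of 6 cases in WT. CAO, which makes chlorophyll b, fell (-2.8 ± 0.044). NYC1, a chlorophyll b reductase, went from 152, 148 and 153 CPM to 2578, 2566 and 2591 CPM (4.1 ± 0.039). SGR1, the magnesium dechelatase, rose (4.05 ± 0.057), and so did its relative SGR2 (6.66 ± 0.14). In ml5 at day 7, where all trimer genes were higher than in WT, SGR1 (-0.80 ± 0.046) and NYC1 (-0.47 ± 0.037) were lower. LHCB5 (1.62 ± 0.041), LHCA2 (1.09 ± 0.034) and cpSRP43 (0.54 ± 0.044) were higher. Of the 6 genes for chlorophyll b and dismantling, 4 were lower there and 2, CAO and HCAR, higher. The minor antenna had 4 higher and 0 lower, the photosystem I antenna 4 and 1, and the import and insertion genes 4 and 0. These counts stand beside 19.3% of all tested genes higher and 24% lower (43.3% called). In the dark response of ml5 minus WT, 6 of 6 minor antenna genes and 4 of 6 photosystem I antenna genes were higher, beside 17.4% of all tested genes (35.4% called). In that of ml2 minus WT the counts were 5 and 4, beside 13.4% (29% called). The LHCB5 difference was 1.76 ± 0.057 in ml5 and 0.75 ± 0.057 in ml2.

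Transcription factors reported to act on LHCB genes did not share a direction. In WT darkness, where 39.9% of all tested genes fell, 8 of 9 fell and HY5, a bZIP factor of light signalling, rose (3.47 ± 0.12), but LHY (-0.23 ± 0.077) and GNC (-0.15 ± 0.061) turned to 0.15 and 0.23 with library sizes alone. The LHY call also ended without WT day 0 replicate 2 (-0.18) or WT day 7 replicate 3 (-0.18). The GNC call ended with a filter of 1 count (-0.15) and when WT day 0 replicate 2 (-0.12), WT day 7 replicate 2 (-0.12) or WT day 7 replicate 3 (-0.15) was removed. In ml2 7 of 9 fell and 2 rose, among the 7 GNC (-0.18 ± 0.066, turning to 0.044 with library sizes alone), and in ml5 5 fell and 4 rose, beside 40.2% and 40.1% of all tested genes lower. PIF5, a phytochrome-interacting factor, fell (-1.71 ± 0.050), and so did GLK1, a GOLDEN2-LIKE activator of antenna genes (-1.22 ± 0.041). The clock factors CCA1, first described as a protein that binds an LHCB1 promoter, and LHY were lower than in WT in both lines at day 0. CCA1 stood at 106, 111 and 114 CPM in WT, 41, 40.6 and 42.6 in ml2 and 38.6, 40.7 and 40.1 in ml5 (-1.41 ± 0.057 and -1.47 ± 0.059). At day 7 it stood at 69.6, 70.5 and 71.7 CPM in WT, 26.8, 30.3 and 26.5 in ml2 and 88, 85.3 and 90.7 in ml5. From day 0 to day 7 CCA1 thus fell in WT (-0.64 ± 0.055) and rose in ml5 (1.14 ± 0.058), a difference of 1.79 ± 0.080 (adjusted p = 1.7e-17). GLK2 fell less in ml5 than in WT, by 1.0 ± 0.078. The hour of harvest is not given in the sources used here, and its part in the levels of CCA1, LHY and the LHCB genes was not tested.

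**Figure D5:**
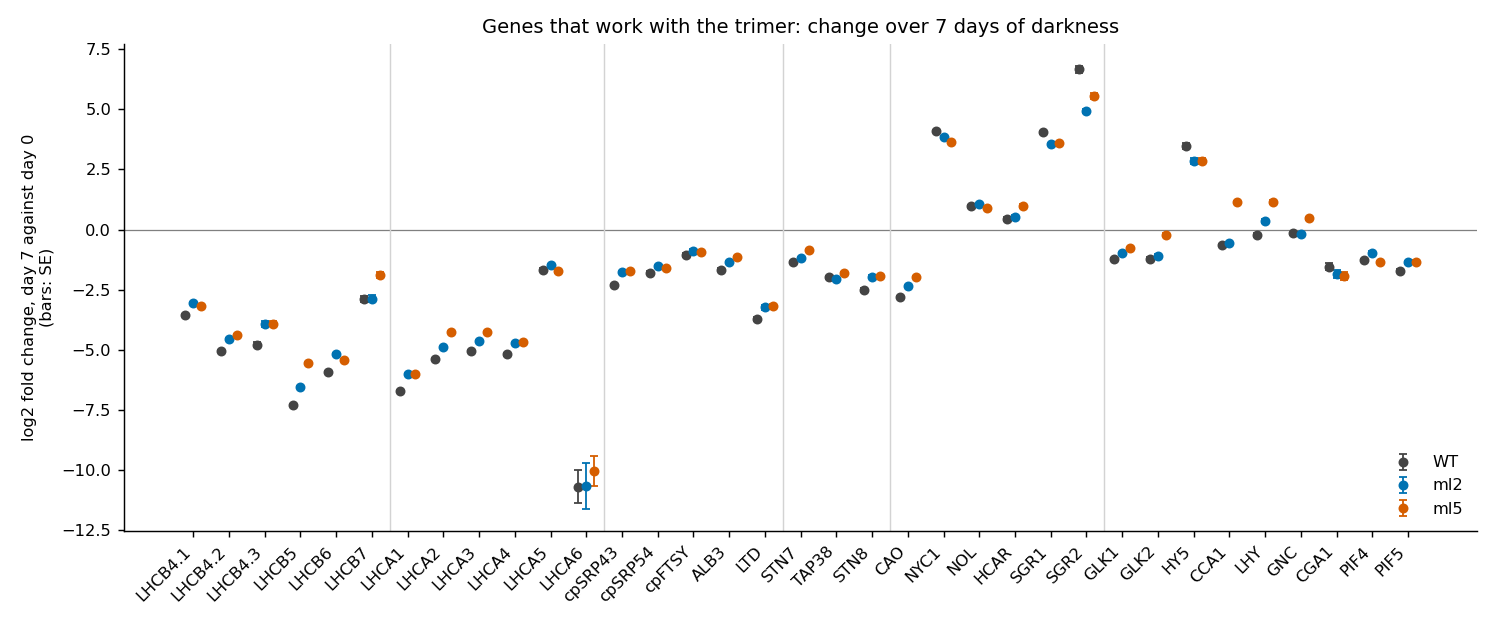
Log2 fold change from day 0 to day 7 of darkness (points, with SE as bars) in WT, ml2 and ml5 for 35 genes related to the trimer, with grey lines between the minor antenna, photosystem I antenna, import and insertion, phosphorylation, chlorophyll b and dismantling, and transcription factor lists. The first 4 lists lie below 0 throughout, while NYC1, NOL, HCAR, SGR1, SGR2 and HY5 lie above 0 in all 3 genotypes.

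The genes whose pattern was most like the trimer total were sought by the root mean square difference of centred log2 group means over the 6 groups, among 7131 named genes with at least 5 CPM in a group. PSAK, a subunit of photosystem I, was closest (difference 0.123, Pearson r = 0.999 over 6 group means). Its means were 2472 CPM in WT, 2017 in ml2 and 2233 in ml5 at day 0, and 32.8, 32.9 and 44.3 at day 7. PPL1, a PsbP-like protein (0.156), ARR9, a type-A response regulator (0.157), PnsL4, a subunit of the chloroplast NDH complex (0.168), and CA2, a carbonic anhydrase (0.195), followed. The means share libraries and are dominated by the step between the days, so r describes that step and carries no test.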

How the data were processed

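Leaf RNA was sequenced in 18 libraries (6 groups, 3 each). Per the submitters' processing notes, TopHat2 2.0.12 and Bowtie2 2.0.6 were used, and the genome builds TAIR10 and IRGSP-1.0, the latter of rice, are named without a role. Which tool counted reads, and how it treated strand and reads with several matches, is not given in the sources used here. The deposited table holds the authors' estimated counts per gene (expected counts, 97.1% of values whole), not normalized. They were rounded to whole numbers.

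Genes were tested with edgeR 4.0.16 in R 4.3.3 (quasi-likelihood, TMM, a minimum count of 10, 6 group means over 18 libraries, Benjamini-Hochberg adjustment over 19493 genes, threshold 0.05), with 8135 genes left untested. For sums, the rows of the copies were replaced by their sum. SEs are those of the fitted log2 fold changes, and the common coefficient of variation between libraries of a group was 5.63% beyond counting noise. CPM used TMM library sizes. Of 27628 gene rows, 27420 matched the TAIR10.1 annotation (RefSeq) and 208 were organelle rows. No library was identical to another. DESeq2 1.42.0, other scalings, filters and fits, a replicate block and removal of each library were alternatives. Replicate numbers did not pair libraries (correlation of deviations -0.12 to 0.077).

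The 9 genes, the gene lists and the tests were chosen with earlier results of these data known. All 9 genes are named. Of each related list at most the 3 genes with the smallest adjusted p in a comparison are named with values in it, except CAO, CCA1, LHY and GNC in WT darkness, GNC in ml2 darkness and CCA1 in ml5 darkness, which were chosen after their values were seen. The tests ran on simulated counts first.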

Additional observations from a re-analysis of the deposited data

Results flagged for a closer look

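The dark response was tested for a difference between genotypes, as an interaction in edgeR, for each gene and each sum, and the following passed. All values are differences of log2 fold changes, a positive one meaning a smaller fall in the genotype named first. The comparisons share libraries.

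Between ml2 and WT the total differed by 0.32, the LHCB1 sum by 0.36 and the LHCB2 sum by 0.14, the last turning to -0.013 with library sizes alone and losing its call in a restricted fit and in 3 removals of a single library. LHCB1.4 (1.16) and LHCB1.2 (1.1) differed by more than 1. LHCB2.3 (0.77), LHCB1.3 (0.63) and LHCB2.2 (0.47) followed, with LHCB1.5 (0.21) and LHCB3 (0.20) the smallest. With library sizes alone LHCB1.5 (0.051) and LHCB3 (0.050) lost their calls.

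Between ml5 and WT the total differed by 0.67, the LHCB1 sum by 0.62 and the LHCB2 sum by 0.98. LHCB1.3 (1.26), LHCB2.3 (1.2), LHCB2.2 (1.06) and LHCB2.1 (1.0) led. LHCB1.2 (0.71), LHCB3 (0.69), LHCB1.1 (0.67) and LHCB1.5 (0.48) were smaller. The LHCB1.2 call ended without WT day 7 replicate 1 (0.54) or 2 (0.61) or ml5 day 7 replicate 2 (0.64).

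Between ml5 and ml2 the total differed by 0.35, the LHCB1 sum by 0.26 and the LHCB2 sum by 0.84. LHCB1.4 went the other way (-1.08) from LHCB2.1 (0.89), LHCB1.1 (0.72), LHCB1.3 (0.62), LHCB2.2 (0.59), LHCB3 (0.49), LHCB2.3 (0.43) and LHCB1.5 (0.27). The LHCB2.3 call ended without ml2 day 7 replicate 1 (0.29) or 2 (0.37) or ml5 day 7 replicate 3 (0.33).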

How the results depend on the processing

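Over 144 effects of the 9 genes, their sums and total, 1879 of 1944 refits kept the direction and the side of the threshold, 41 lost the call, 15 gained one and 9 reversed. All 432 refits of the falls in darkness kept both. The cause of the changes below was not tested. The higher total of ml5 at day 0 ended under RLE size factors (0.059) and DESeq2 (0.059) and ran from 0.078 to 0.11 when 1 library was left out. The higher total of ml2 at day 7 ended with library sizes alone (0.046) and DESeq2 (0.090) and ran from 0.072 to 0.11. In a fit restricted to the libraries compared, 5 rather than 3 genes were called lower in ml5 at day 0. LHCB1.5 in ml2 at day 7, not called, turned under RLE size factors (0.0017) and DESeq2 (0.0018) and ran from -0.023 to 0.021 with 1 library left out, 0.00015 without WT day 7 replicate 2 and 0.016 without replicate 3. With library sizes alone LHCB1.3 in ml2 at day 0 turned (0.028), as did LHCB2.1 (-0.040) and the LHCB2 sum (-0.013) in the dark response of ml2 minus WT. That sum lost its call in that restricted fit (0.14) and without WT day 7 replicate 2 (0.12), ml2 day 0 replicate 3 (0.11) or ml2 day 7 replicate 3 (0.12). LHCB1.1 there turned without WT day 7 replicate 1 (0.017) and ran from -0.12 to 0.017. Of 1242 refits of related genes, 1227 changed neither, 12 lost the call and 3 reversed, all 3 with library sizes alone: LHY (0.15) and GNC (0.23) in WT darkness and GNC in ml2 (0.044).

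Library sizes alone moved the median of all genes by 0.38, 0.23 and 0.41 in the darkness of WT, ml2 and ml5, by 0.11 in ml2 against WT at day 0, and by -0.15 and 0.18 in the dark responses of ml2 minus WT and ml5 minus ml2. The share of called genes that were higher went from 51.3% to 64.3% in WT and from 49.7% to 65.3% in ml5 darkness, from 49.3% to 66.8% in ml2 against WT at day 0 and from 51.9% to 41.2% at day 7, from 49.4% to 26.8% in ml5 against ml2 at day 0 and from 45.9% to 60.0% at day 7, and from 46.3% to 22.8% and from 52.8% to 80.6% in those dark responses.

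With the replicate number as a block, 143 of 144 effects were the same, and LHCB1.2 in ml5 at day 0 lost its call (0.12). The numbers pair no libraries, and the reason for the lost call was not tested. At day 7 LHCB1.2 rested on 12 to 33 counts a library, which limits its fold changes. A permutation of day within genotype and the removal of single libraries, both added for the shares after their lack of overlap was seen, could only restate it and are not used.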
